A study of Mus musculus with 5 samples.

Results

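The genes described here are 2 cytokines that barrier tissues release on damage, Tslp and Il33, and 4 receptor chains that read such alarm signals, Il1rl1, Crlf2, Il7r and Il17rb. They were chosen by symbol from the gene list that comes with the count matrices, where each symbol named 1 gene, so they are 6 of 31053 genes. The study profiled single cells of ventral skin from C57BL/6J mice at postnatal day 28 by droplet 3′ RNA sequencing, with 2 libraries from wild-type mice (WT) and 3 from Prx1Cre+Ikkbf/f mice (Ikkb_cKO). In the latter, Cre recombinase under the Prx1 promoter, which is active in mesenchymal cells of the limbs and ventral body wall, deletes floxed alleles of Ikkb, the kinase that activates NF-κB. The labels give no Cre or floxed allele for the WT mice, so any effect of Cre itself cannot be told apart from that of the deletion. Each library pooled the skin of 2 mice, and debris, dead cells and aggregates had been removed by sorting, so p-values here measure the spread between pools.

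TSLP and IL-33 are best known as products of keratinocytes and other barrier cells that start type 2 immune responses. TSLP binds a receptor made of CRLF2 and the IL-7 receptor chain IL7R and signals through JAK kinases and STAT5. IL-33 is stored in the nucleus, is released when cells are damaged, and binds ST2, the product of Il1rl1, which signals through IL1RAP, MYD88 and IRAK kinases. IL17RB is a chain of the receptor for IL-25, another alarm cytokine. Group 2 innate lymphoid cells (ILC2), regulatory T cells, mast cells and dendritic cells are classic carriers of these receptors.

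After filtering, 10393 of 11084 barcodes were kept, with 912 to 3168 cells a library and a median of 1607 to 4023.5 UMIs (unique molecules) a cell, lowest in Ikkb_cKO libraries 1 and 2. Ikkb_cKO library 3 stood apart from the other Ikkb_cKO libraries in all compared classes and held 298 of the 354 keratinocyte-like cells. Libraries shared 0 to 17 cell barcodes a pair. Ikbkb, the targeted gene, was at 14.5, 18.5, 15.8, 19.97 and 16.003 normalized CPM in fibroblast-like cells of WT libraries 1 and 2 and Ikkb_cKO libraries 1 to 3, a log2 difference of 0.05 ± 0.22 (SE; edgeR quasi-likelihood test, adjusted p = 0.934). Tags from the 3′ end can lie outside the deleted part, so this value checks nothing about the labels. Cells were clustered and named from marker genes, and every fibroblast, myeloid, lymphocyte and mast marker list had its highest summed level in the class it names. The 6 genes gave few UMIs: 704 for Tslp in 542 cells, 721 for Il33 in 389 cells, 3236 for Il1rl1 in 1056 cells, 2131 for Crlf2 in 1606 cells, 1726 for Il7r in 801 cells and 41 for Il17rb in 33 cells.

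Levels by class are given as CPM, the gene's UMIs over all UMIs of that class in that library, scaled by a constant. In WT skin Tslp was found in fibroblast-like cells, in myeloid-like cells and in the smooth-muscle-like cells of vessel walls (mural-like). Myeloid-like cells were at 47.4 and 38.3 CPM in the 2 WT libraries, and fibroblast-like cells at 16.5 and 17.9 CPM. Mural-like cells were at 78.1 and 37.3 CPM from 9 and 5 UMIs, on both sides of the myeloid values, so those classes did not differ in Tslp level beyond their spread. Keratinocyte-like cells, the textbook source, gave 0 Tslp UMIs in 38 WT cells, which allows up to 13.8 CPM. In the 298 keratinocyte-like cells of Ikkb_cKO library 3 they gave 17 UMIs, or 5.97 CPM. Lymphocyte-like cells had no Tslp UMI in any library, which allows up to 6.56 CPM over the WT libraries and 1.46 CPM over the Ikkb_cKO libraries (3 counts of the total), and mast-like, Schwann-like, muscle-like and B-lineage-like cells had none either.

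**Figure D1:**
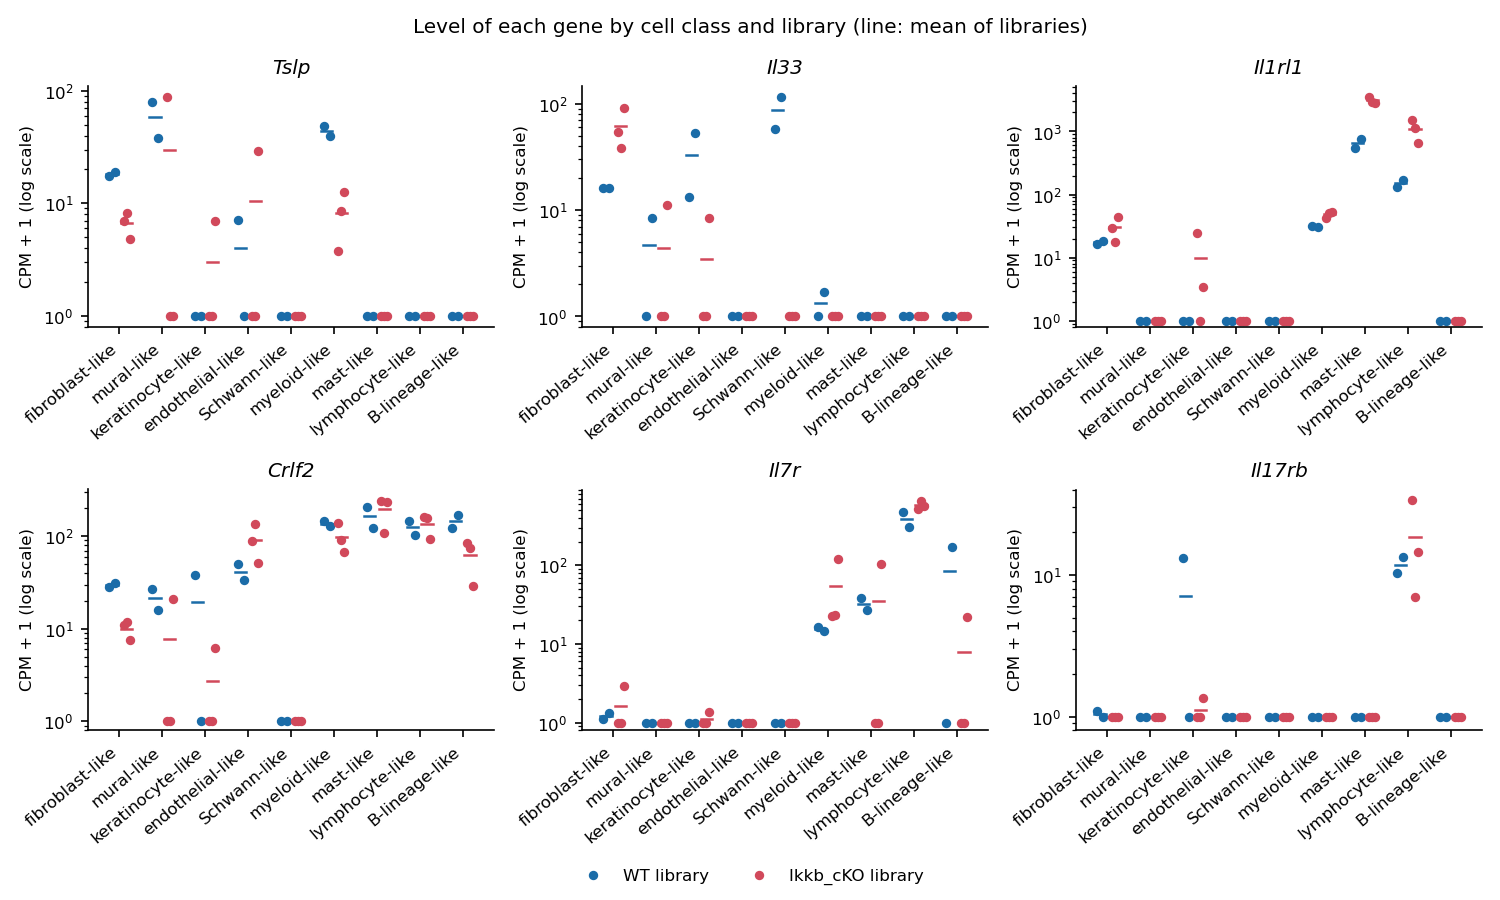
Level of each gene as CPM + 1 on a log axis, by cell class, with 1 point per library (blue WT, n = 2; red Ikkb_cKO, n = 3) and a line at the mean. In WT, Tslp is seen in fibroblast-like, myeloid-like and mural-like cells, and Il33 in fibroblast-like, Schwann-like and keratinocyte-like cells. The highest Il1rl1 values, 2834 to 3495 CPM, are the Ikkb_cKO mast-like cells. Classes with few cells scatter between 0 and high values.

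Within the myeloid class, Tslp lay almost wholly in a macrophage-like cluster led by the complement genes C1qa, C1qb and C1qc and by Pf4, Folr2 and Lyve1. That cluster held 224 of the 234 myeloid Tslp UMIs of the WT libraries and 19 of 26 in the Ikkb_cKO libraries. Its level was 114 and 100 CPM in the WT libraries and 0, 130 and 117 CPM in Ikkb_cKO libraries 1 to 3, from 117, 107, 0, 3 and 16 UMIs. Ikkb_cKO library 1 had 7 such cells, so its value of 0 says little.

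Tslp was lower in Ikkb_cKO skin in both main source classes. In fibroblast-like cells it was at 16.5 and 17.9 CPM in WT against 5.99, 7.12 and 3.83 CPM in Ikkb_cKO libraries, from 170, 212, 6, 8 and 10 UMIs. Every Ikkb_cKO value was below both WT values. The log2 difference (Ikkb_cKO minus WT) was -1.75 ± 0.28 (SE; edgeR, adjusted p = 0.00538). In this class 3 of the 4 genes of the set that could be tested passed the threshold, Tslp, Crlf2 and Il33, where 35.2% of all genes tested did, and in those 3 the groups did not overlap, as in 60.9% of all genes. Without WT library 1 or WT library 2 the adjusted p of Tslp was 0.0723 or 0.0812 by edgeR, with differences of -1.78 and -1.68. A fit with 1 WT library takes its spread from the Ikkb_cKO libraries alone and has less power: over all genes in this class, 182 rose and 299 fell without WT library 1 and 157 and 322 without WT library 2, beside 1820 and 1896.

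Different clusters made up most of the fibroblast-like cells in the 2 genotypes, so the class value also reads which cells were present. In WT the Tslp UMIs came from clusters led by Fabp4 and Has1 (97 UMIs), Mfap5, Igfbp6 and Pi16 (74 UMIs), Postn and Ccl11 (73 UMIs) and Cilp and Mfap4 (67 UMIs). A cluster led by Ptx3 and Col6a5 held 696 Ikkb_cKO cells and 1 WT cell and gave 6 Tslp UMIs, or 4.25 CPM (95% Poisson interval 1.56 to 9.25, which covers counting error only). In the Cilp cluster, present in all libraries, Tslp was at 21.5 CPM in pooled WT libraries (interval 16.7 to 27.3) and 9.70 CPM in pooled Ikkb_cKO libraries (2.00 to 28.3). In the Mmp3 cluster, led also by Serping1 and Clec3b, the pooled values were 24.8 CPM (17.0 to 34.8) and 20.4 CPM (5.56 to 52.2). Both pairs of intervals overlap, and with all 5 libraries Tslp was too low in each cluster to enter a test. In the Cilp cluster it could be tested when an Ikkb_cKO library was left out and did not pass, at -1.40, -2.29 and -0.59 without libraries 1, 2 and 3 (edgeR, adjusted p = 0.415, 0.245 and 0.7502).

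In myeloid-like cells Tslp fell from 47.4 and 38.3 CPM to 2.74, 7.46 and 11.5 CPM, with no overlap, as in 45.7% of all genes. The log2 difference was -2.17 ± 0.33 (SE; edgeR, adjusted p = 0.00125), and it kept its direction and its call without any 1 library, with differences of -2.97 to -1.95. In this class 2 of 4 tested genes of the set passed, Tslp and Il1rl1, where 18.9% of all genes did. Within the macrophage-like cluster alone the difference was -0.05 ± 0.41 (SE; edgeR, adjusted p = 0.942), in a fit that admitted libraries with at least 5 cells of a cluster and in which 33.1% of genes passed. Once that cluster was left out, Tslp no longer had enough counts for a test in myeloid-like cells. The cluster held 883 of 1675 myeloid-like cells in WT libraries and 140 of 854 in Ikkb_cKO libraries. The myeloid and fibroblast differences in Tslp were themselves apart by -0.44 ± 0.52 (SE), which did not pass the test of the difference (edgeR, adjusted p = 0.663). Without Ikkb_cKO library 3 they were -1.69 apart (edgeR, adjusted p = 0.146), and without any other 1 library -0.71 to -0.15.

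**Figure D2:**
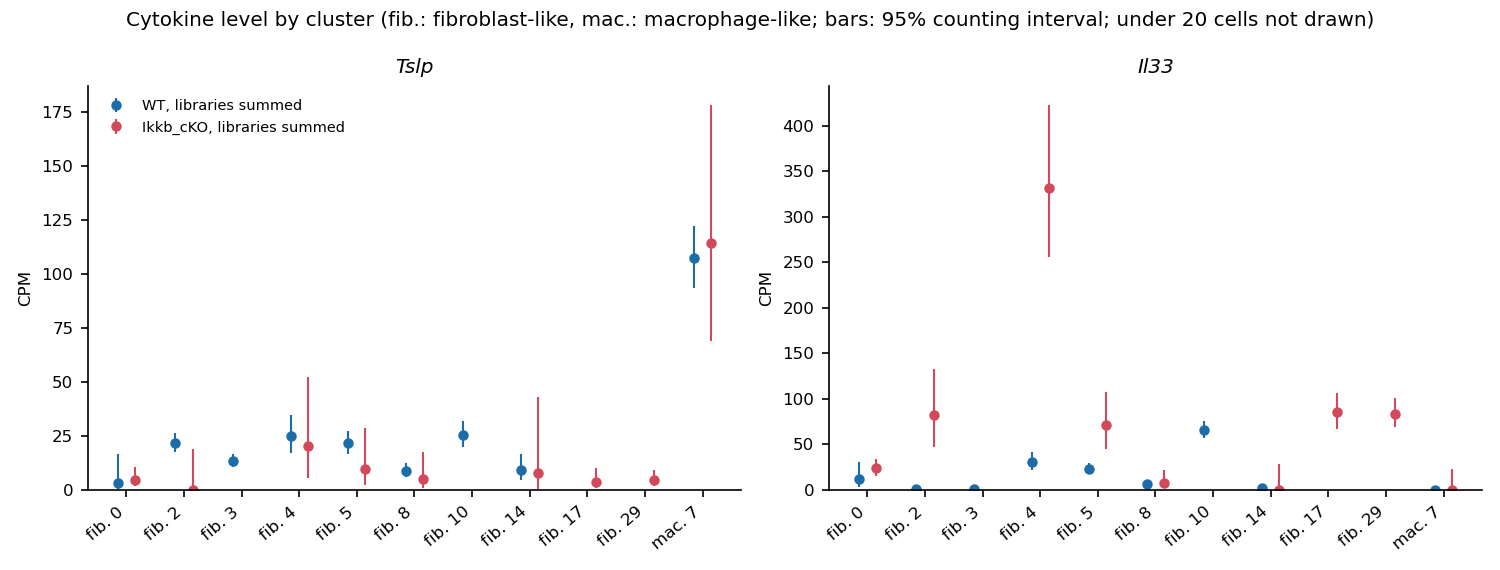
Tslp (left) and Il33 (right) in the fibroblast-like clusters, by number, and the macrophage-like cluster, as CPM of the libraries of a genotype summed (blue WT, red Ikkb_cKO), with 95% Poisson intervals; clusters under 20 cells in a genotype are not drawn. Tslp is highest in the macrophage-like cluster in both genotypes (107 and 114 CPM), and Il33 is highest in Ikkb_cKO cells of cluster 4 (331 CPM), the Mmp3 cluster.

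Il33 moved the other way. In fibroblast-like cells it was at 15.1 and 15.2 CPM in WT and at 53.9, 37.4 and 90.4 CPM in Ikkb_cKO libraries, from 156, 180, 54, 42 and 236 UMIs. All 3 Ikkb_cKO libraries were above both WT libraries, and library 3 was the highest. The log2 difference was 2.01 ± 0.38 (SE; edgeR, adjusted p = 0.00979). Without Ikkb_cKO library 3 it was 1.501 and still passed (edgeR, adjusted p = 8.48e-07), while without WT library 1 or WT library 2 the adjusted p was 0.104 or 0.102 by edgeR at differences of 1.98 and 1.97.

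Other sources of Il33 were small. The most UMIs outside fibroblast-like cells in WT, 11 of 367, came from a cluster that stayed unnamed and was led by the epithelial keratin genes Krt18, Krt19 and Krt8. It was at 52.2 and 71.1 CPM in the WT libraries, from 4 and 7 UMIs in 11 and 13 cells, and held 2 Ikkb_cKO cells. Schwann-like cells were at 57.2 and 115 CPM in WT from 3 and 6 UMIs in 45 cells, above the fibroblast level but at very low counts. Keratinocyte-like cells were at 12.2 and 51.9 CPM in WT from 1 and 7 UMIs, on both sides of the fibroblast level, and at 7.37 CPM in Ikkb_cKO library 3 from 21 UMIs. Myeloid-like cells had 2 Il33 UMIs in all, and endothelial-like, mast-like, lymphocyte-like and B-lineage-like cells had none.

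Among fibroblast-like clusters, WT Il33 was highest in the Mfap5, Igfbp6 and Pi16 cluster, at 57.5 and 71.9 CPM. Only 7 Ikkb_cKO cells fell in that cluster. The Mmp3 cluster was present in both genotypes, with 157, 175, 19, 22 and 36 cells, and rose from 31.2 and 29.1 CPM to 251, 41.0 and 503 CPM. Its log2 difference was 3.35 ± 0.54 (SE; edgeR with at least 5 cells a library, adjusted p = 0.00229, where 31.8% of genes passed), and without Ikkb_cKO library 3 it was 2.03 with an adjusted p of 0.0406 by edgeR. In the Cilp cluster Il33 was at 29.5 and 16.1 CPM in WT and at 0, 86.4 and 111 CPM in Ikkb_cKO, with overlapping groups and a difference of 1.57 ± 0.67 (SE) that did not pass (edgeR, adjusted p = 0.0865). It passed without Ikkb_cKO library 1 (1.95, edgeR adjusted p = 0.00652) and was 0.90 without library 3 (edgeR, adjusted p = 0.501). The Ptx3 and Col6a5 cluster, nearly all from Ikkb_cKO skin, was at 48.2, 31.3 and 331 CPM in the 3 Ikkb_cKO libraries. Over all libraries 20 fibroblast-like cells had UMIs of both Tslp and Il33, 287 of Tslp alone and 344 of Il33 alone. In the WT libraries 6.71% of the fibroblast-like cells with a Tslp UMI also had an Il33 UMI, close to the 6.16% of all WT fibroblast-like cells that had one (mean of 2 libraries).

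**Figure D3:**
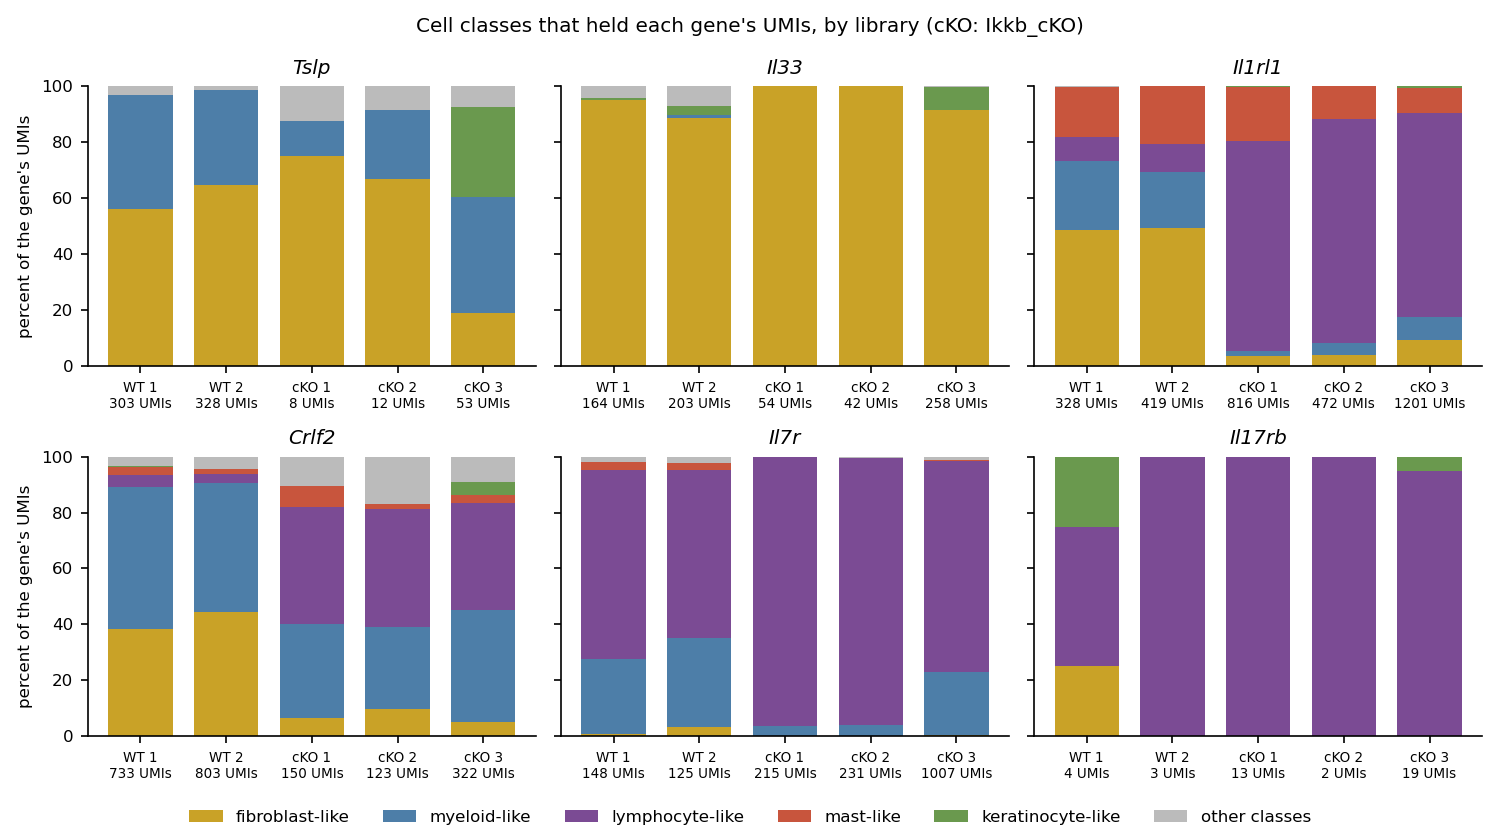
Share of each gene's UMIs, in percent, held by each cell class in each library, with the number of UMIs under each bar. Fibroblast-like cells hold 48.5 and 49.2% of Il1rl1 UMIs in the 2 WT libraries, and lymphocyte-like cells hold 72.9 to 80.1% in the 3 Ikkb_cKO libraries; bars over fewer than 20 UMIs rest on very few molecules.

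Il1rl1, the IL-33 receptor gene, lies at chr1:40429570-40465415 on the plus strand (GRCm38, GENCODE M21) and has 2 start sites in RefSeq, 10059 bases apart. Il33 lies at chr19:29925114-29960718 (plus strand), Crlf2 at chr5:109554709-109558993, Il7r at chr15:9505788-9530176 and Il17rb at chr14:29996135-30008896 (minus strand). The bases before each Il1rl1 start are shown because Il1rl1 was the gene of the set that rose in the most cell classes. GATA motifs were marked after seeing that Gata3, a factor that binds them and directs type 2 lymphocytes, was higher in lymphocyte-like cells. Gata3 is also a marker that named lymphocyte-like and ILC2-like cells. ILC2-like cells were 28.1% of this class in WT and 65.4% in Ikkb_cKO libraries (means). Any link between Gata3 and Il1rl1 was not tested. Both windows are from RefSeq on GRCm38.p6, plus strand, 5′ to 3′, with matches to the GATA motif in capitals (GATA with A or T before it and A or G after it, on either strand). The distal window is chr1:40429320-40429569 and the proximal window chr1:40439379-40439626, which was ended before the first annotated exon.
Il1rl1 distal: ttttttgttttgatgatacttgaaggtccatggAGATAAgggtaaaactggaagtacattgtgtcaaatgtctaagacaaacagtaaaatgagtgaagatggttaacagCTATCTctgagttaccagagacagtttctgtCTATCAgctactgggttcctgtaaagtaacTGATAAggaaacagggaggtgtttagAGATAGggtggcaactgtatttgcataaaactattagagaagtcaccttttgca
Il1rl1 proximal: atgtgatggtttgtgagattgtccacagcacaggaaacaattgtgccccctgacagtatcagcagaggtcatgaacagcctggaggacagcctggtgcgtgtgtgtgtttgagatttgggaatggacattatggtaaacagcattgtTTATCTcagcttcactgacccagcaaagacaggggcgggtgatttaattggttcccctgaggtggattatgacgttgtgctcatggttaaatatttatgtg
In the distal window 5 matches lay 217, 141, 110, 80 and 54 bases before the start, and the proximal window had 1, at 103 bases. Of 32851 windows of all genes, 0.0426% held at least 5 matches and 26.5% at least 1. The other 5 windows of the set, for Il33, Crlf2, Il7r and Il17rb, held none. Of these, the Il7r window overlapped an Il7r exon and the Il17rb window an exon of the gene Chdh, and neither was shortened. None of the 7 windows held the NF-κB consensus, which 3.90% of all windows held. No window of Tslp was used, so these counts do not cover that gene. A match is a run of letters and was not shown to be a site.

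In WT skin Il1rl1 was highest in mast-like cells, at 547 and 757 CPM, followed by lymphocyte-like cells at 131 and 168 CPM, myeloid-like cells at 31.2 and 29.3 CPM and fibroblast-like cells at 15.4 and 17.4 CPM, with no overlap between neighbours in that order. Endothelial-like, Schwann-like, mural-like, muscle-like and B-lineage-like cells had no Il1rl1 UMI in any library. In Ikkb_cKO skin the mast-like level was 3495, 2965 and 2834 CPM and the lymphocyte-like level 1540, 1136 and 659 CPM. Every Ikkb_cKO library was above both WT libraries in each of those classes. Groups did not overlap, in either direction, in 319 of 661 genes tested in mast-like cells and 2086 of 4336 in lymphocyte-like cells.

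The lymphocyte-like difference was 3.05 ± 0.44 (SE; edgeR, adjusted p = 0.0111), the only one of the 3 tested genes of the set to pass in this class, where 8.14% of all genes did. Its groups did not overlap, as in 48.1% of all genes. Without WT library 1 or WT library 2 the adjusted p was 0.110 or 0.108 by edgeR, at differences of 2.90 and 3.26. Lymphocyte-like clusters were present in very different numbers in the 2 genotypes, so the same gene was tested cluster by cluster. With the ILC2-like cluster left out, the difference in the rest of the class was 4.61 ± 0.70 (SE; edgeR, adjusted p = 0.0118). That value rests on very few WT UMIs of Il1rl1 outside ILC2-like cells. The rest of the class also differed in make-up. In WT libraries 1 and 2 and Ikkb_cKO libraries 1 to 3 it held 7, 8, 14, 17 and 39 regulatory T-cell-like cells. Cytotoxic lymphocyte-like cells were 45, 48, 22, 9 and 157, and the part of this in the difference was not tested.

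The ILC2 name was given without a check that the T-cell genes Cd3e, Cd3d and Cd3g were low. T cells with the same markers may therefore be among the cells so named. ILC2-like cells, led by Areg, Il13, Il5 and Gata3, had 26, 26, 140, 103 and 196 cells in the 5 libraries. Their Il1rl1 level was 492 and 609 CPM in WT and 1725, 1276 and 1318 CPM in Ikkb_cKO, from 26, 36, 558, 327 and 702 UMIs. The log2 difference was 1.52 ± 0.21 (SE; edgeR, adjusted p = 3.51e-05), where 11.0% of genes passed in that cluster. Il1rl1 itself helps to define this cluster, so cells were also clustered without the 6 genes and the pathway lists, and the difference was then 1.53 ± 0.21 (SE; edgeR, adjusted p = 4.26e-05). It passed without any 1 library, with differences of 1.39 to 1.82.

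Regulatory T-cell-like cells, led by Foxp3, Ctla4, Tnfrsf4 and Ikzf2, had 2, 3, 55, 51 and 159 Il1rl1 UMIs in 7, 8, 14, 17 and 39 cells. That is 159 and 200 CPM in WT against 2689, 951 and 1741 CPM in Ikkb_cKO, with a difference of 3.28 ± 0.62 (SE; edgeR with at least 5 cells a library, adjusted p = 0.00276, where 6.82% of genes passed). The Il1rl1 gene is among those that lead this cluster within its class. In mast-like cells, with 35, 40, 24, 8 and 18 cells, the difference was 2.07 ± 0.28 (SE; edgeR with at least 5 cells a library, adjusted p = 0.00019, where 18.2% of genes passed). Both passed without any 1 library, at 3.01 to 3.62 and 1.78 to 2.21. T-cell-like cells of the gamma-delta type, led by Il17a and Cd163l1, had 1 Il1rl1 UMI in 105 cells. Cytotoxic lymphocyte-like cells, led by Gzmc and Nkg7, had 2 UMIs in WT and 13 in Ikkb_cKO.

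**Figure D4:**
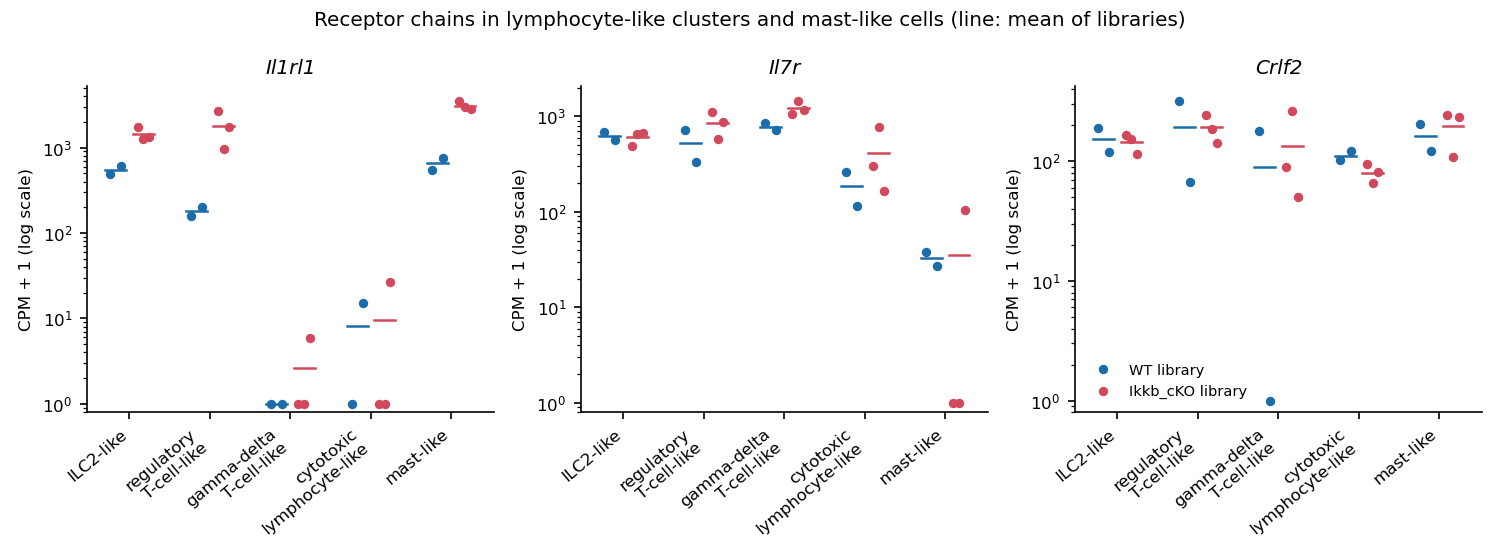
Il1rl1, Il7r and Crlf2 as CPM + 1 on a log axis in 4 lymphocyte-like clusters and mast-like cells, 1 point per library (blue WT, n = 2; red Ikkb_cKO, n = 3) with a line at the mean. Il1rl1 is higher in every Ikkb_cKO library than in either WT library in ILC2-like, regulatory T-cell-like and mast-like cells. Groups do not overlap, in either direction, in 1473 of 3154, 148 of 352 and 319 of 661 genes tested in those clusters, in that order. Il7r in ILC2-like cells lies at 491 to 681 CPM in all 5 libraries.

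In myeloid-like cells Il1rl1 was at 31.2 and 29.3 CPM in WT and 41.2, 49.7 and 51.8 CPM in Ikkb_cKO. The difference of 0.70 ± 0.22 (SE) passed narrowly (edgeR, adjusted p = 0.0446), and the call was lost without WT library 1 (0.73, adjusted p = 0.373), WT library 2 (0.66, 0.434) or Ikkb_cKO library 3 (0.63, 0.114), all by edgeR, and without the macrophage-like cluster (0.40, 0.279). The 10 mast markers summed to 12.3 to 15.9 CPM in WT and 106 to 178 CPM in Ikkb_cKO libraries of this class, with none at 0, and their part in the Il1rl1 value was not tested. The larger monocyte-like cluster, of 750 cells led by Retnla, Lyz1 and Fn1, is meant by monocyte-like cells here. In it Il1rl1 was at 48.1 and 51.5 CPM in WT and 68.8, 55.9 and 76.5 CPM in Ikkb_cKO, a difference of 0.38 ± 0.31 (SE; edgeR, adjusted p = 0.448). Dendritic-cell-like cells lay the other way for Il1rl1, at 49.0 and 36.9 normalized CPM in WT and 14.9, 31.9 and 30.3 in Ikkb_cKO. That difference was -0.61 ± 0.40 (SE; edgeR, adjusted p = 0.374). Groups did not overlap there, as in 1870 of 4581 genes tested. Fibroblast-like cells were at 15.4 and 17.4 CPM in WT and 27.9, 16.9 and 42.5 CPM in Ikkb_cKO, with overlapping groups and a difference of 0.86 ± 0.35 (SE) that did not pass (edgeR, adjusted p = 0.0966), though it did without Ikkb_cKO library 2 (1.15, edgeR adjusted p = 0.0317) and after each cell was thinned to 1000 UMIs (1.19, edgeR adjusted p = 0.0433). The lymphocyte-like and fibroblast-like differences in Il1rl1 were 2.10 ± 0.84 (SE) apart, which did not pass (edgeR, adjusted p = 0.437), but did without Ikkb_cKO library 1 (1.78, edgeR adjusted p = 4.89e-05) or library 3 (2.98, edgeR adjusted p = 1.57e-21).

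Crlf2, the chain that gives the TSLP receptor its specificity, was the most widely found of the 4 receptor genes. In WT skin it was at 204 and 122 CPM in mast-like cells, 143 and 128 CPM in myeloid-like cells, 146 and 102 CPM in lymphocyte-like cells, and 122 and 168 CPM in B-lineage-like cells from 4 UMIs, 4 classes that overlapped. Endothelial-like cells were lower, at 48.5 and 32.6 CPM, and fibroblast-like cells at 27.2 and 30.3 CPM. Within the WT fibroblast-like cells the Postn and Ccl11 cluster (45.4 and 42.1 CPM) and the Fabp4 and Has1 cluster (37.6 and 45.1 CPM) were highest. Schwann-like cells had no UMI, which allows up to 28.7 CPM in WT.

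Crlf2 fell in fibroblast-like cells, from 27.2 and 30.3 CPM to 9.98, 10.7 and 6.51 CPM, from 281, 358, 10, 12 and 17 UMIs. The difference was -1.79 ± 0.24 (SE; edgeR, adjusted p = 0.00336). It did not pass without WT library 2 (-1.70, edgeR adjusted p = 0.0583) or after each cell was thinned to 1000 UMIs (-1.07, edgeR adjusted p = 0.0518). Both clusters with the highest WT level were nearly absent in Ikkb_cKO skin, with 16 and 50 cells, and the Ptx3 and Col6a5 cluster was at 3.54 CPM (95% Poisson interval 1.15 to 8.26) over the Ikkb_cKO libraries.

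The receptor-bearing immune classes kept Crlf2 nearer to its WT level. Myeloid-like cells were at 143 and 128 CPM in WT and 137, 89.5 and 67.0 CPM in Ikkb_cKO, with overlapping groups (difference -0.54 ± 0.27 SE; edgeR, adjusted p = 0.188; without Ikkb_cKO library 1 -0.82, 0.0328). Lymphocyte-like cells were at 146 and 102 against 158, 156 and 93.4 CPM (0.26 ± 0.33 SE; edgeR, adjusted p = 0.651). The myeloid-like difference lay 1.12 ± 0.29 (SE) above the fibroblast-like one (edgeR, adjusted p = 0.0186, where 11.6% of genes passed) and the lymphocyte-like difference 1.99 ± 0.40 above it (edgeR, adjusted p = 0.00611, where 1.84% passed). The first was lost without WT library 1 (1.26, adjusted p = 0.127), WT library 2 (0.98, 0.282) or Ikkb_cKO library 1 (0.99, 0.0509), and the other without WT library 2 (1.72, 0.222), all by edgeR. Without the macrophage-like cluster the myeloid-like difference was -0.69 (edgeR, adjusted p = 0.116). In fits with at least 5 cells a library it was -0.91 in macrophage-like cells (edgeR, adjusted p = 0.109). It was -0.78 in a smaller monocyte-like cluster led by Ly6c2 and Chil3 (0.261) and -0.13 in a cycling myeloid cluster led by Pclaf and Top2a (0.878), both by edgeR. Within the larger cluster of monocyte-like cells Crlf2 fell from 150 and 110 CPM to 98.3, 69.9 and 44.7 CPM. That difference was -1.25 ± 0.32 (SE; edgeR, adjusted p = 0.0107, where 14.3% of genes passed). That call was lost without WT library 1 (-0.93, adjusted p = 0.337), WT library 2 (-1.39, 0.0632) or Ikkb_cKO library 3 (-0.71, 0.182), all by edgeR. In dendritic-cell-like cells, led by Cd209a and Ccr7, it was at 154 and 164 CPM in WT and 188, 62.6 and 69.7 CPM in Ikkb_cKO, and none of the tested genes of the set passed there, where 4.89% of all genes did, nor did any at an unadjusted p under 0.05 other than Il7r (edgeR, unadjusted p = 0.0406; adjusted p = 0.198). Without Ikkb_cKO library 1, Crlf2 passed there (-1.32, edgeR adjusted p = 0.0473).

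Il7r, the chain shared by the TSLP and IL-7 receptors, was mainly a lymphocyte gene. Lymphocyte-like cells were at 470 and 307 CPM in WT and 520, 664 and 572 CPM in Ikkb_cKO, with no overlap, as in 48.1% of all genes. The difference was 0.75 ± 0.23 (SE) and did not pass (edgeR, adjusted p = 0.0657). It passed without Ikkb_cKO library 3 (0.81, edgeR adjusted p = 0.00365), with no filter on low counts (0.79, 0.00972), with looser (0.79, 0.0484) or stricter (0.81, 0.0329) cell filters and when clustered without the 6 genes and the lists (0.80, 0.0416), all by edgeR, and did not with DESeq2 (0.73, adjusted p = 0.146). By cluster, Il7r was highest in T-cell-like cells of the gamma-delta type, at 851 and 714 CPM in WT and 1065, 1446 and 1164 CPM in Ikkb_cKO (0.72 ± 0.36 SE; edgeR with at least 5 cells a library, adjusted p = 0.402). ILC2-like cells were at 681 and 558 CPM in WT and 491, 652 and 676 CPM in Ikkb_cKO, with a difference of 0.12 ± 0.23 (SE; edgeR, adjusted p = 0.829), beside the 1.52 of Il1rl1 in the same cells.

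Myeloid-like cells gave a split picture for Il7r. They were at 15.4 and 13.8 CPM in WT, at 21.9 and 22.4 CPM in Ikkb_cKO libraries 1 and 2 and at 119 CPM in Ikkb_cKO library 3. Dendritic-cell-like cells (27.6, 15.2, 28.9, 15.7 and 137 CPM) and monocyte-like cells (31.6, 35.8, 29.5, 28.0 and 127 CPM) showed the same library apart. The class difference of 2.26 ± 0.67 (SE) did not pass (edgeR, adjusted p = 0.0594) and was 0.64 without Ikkb_cKO library 3 (edgeR, adjusted p = 0.276), but passed without Ikkb_cKO library 1 (2.63, edgeR adjusted p = 0.0095) or library 2 (2.63, edgeR adjusted p = 0.00837). It also passed with DESeq2 (2.00, adjusted p = 0.0248), with no filter on low counts (2.22, edgeR adjusted p = 7.11e-14), with Ikkb_cKO libraries 1 and 2 summed (2.45, edgeR adjusted p = 0.0430) and with cells thinned to 1000 UMIs (3.59, edgeR adjusted p = 0.000928), all of which include library 3. The monocyte-like difference of 1.23 (edgeR, adjusted p = 0.0647) passed without Ikkb_cKO library 1 (1.47, 0.0170) or library 2 (1.54, 0.0210) and was -0.27 without library 3 (0.7997), all by edgeR. The 19 lymphocyte markers, all detected, summed to 65.9 to 73.7 CPM in WT and 62.2 to 90.5 CPM in Ikkb_cKO libraries of this class, 90.5 CPM in library 3. Fibroblast-like cells had 10 Il7r UMIs in all.

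Il17rb, a chain of the IL-25 receptor, was close to the detection limit. Lymphocyte-like cells held 38 of its 41 UMIs, as 2, 3, 13, 2 and 18 in the 5 libraries, or 9.39, 12.3, 32.7, 6.01 and 13.6 CPM, with overlapping groups and too few counts for a test. They lay in ILC2-like cells (0, 0, 11, 2 and 9 UMIs), T-cell-like cells of the gamma-delta type (1, 3, 2, 0 and 8 UMIs) and cytotoxic lymphocyte-like cells (1, 0, 0, 0 and 1 UMIs). A count of 0 in the WT ILC2-like cells comes from 52 cells, and a difference was not detectable at this depth.

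**Figure D5:**
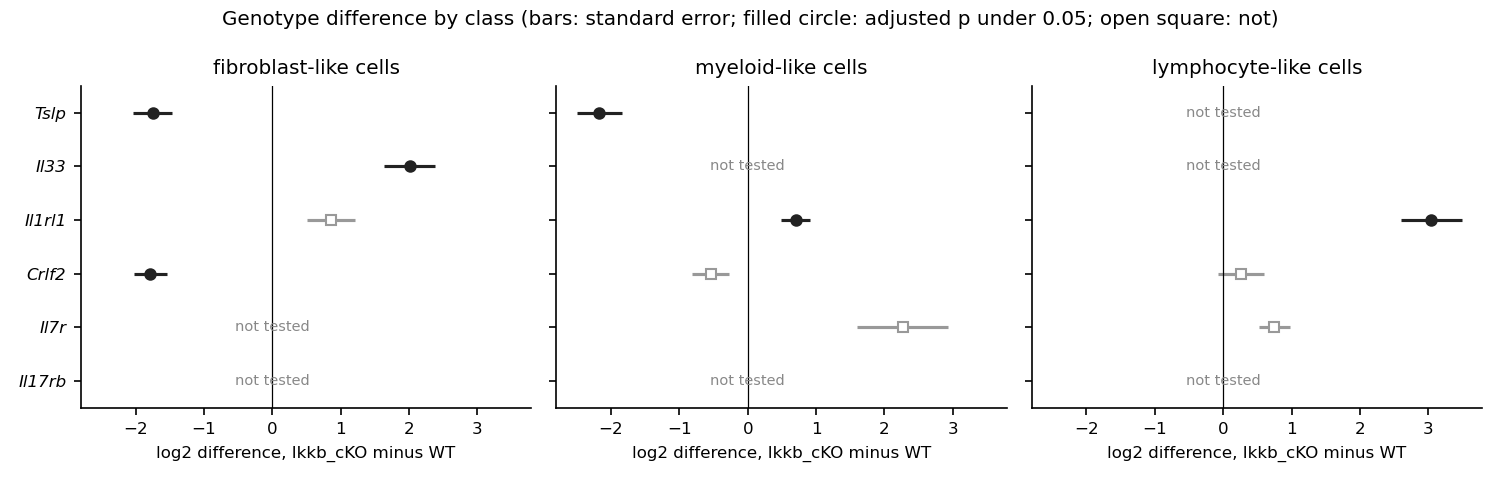
Log2 difference (Ikkb_cKO minus WT) of each gene in 3 cell classes, with its standard error, from edgeR fits over 2 WT and 3 Ikkb_cKO libraries; filled circles have an adjusted p under 0.05. Tslp lies at -1.75 and -2.17 in fibroblast-like and myeloid-like cells, Il33 at 2.01 in fibroblast-like cells, Il1rl1 at 3.05 in lymphocyte-like cells, and Crlf2 at -1.79, -0.54 and 0.26 across the 3 classes.

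Summed over all kept cells, 5 of the 6 genes passed the threshold, where 22.8% of all genes did, and in those 5 the groups did not overlap, as in 59.6% of all genes. Tslp fell by 2.11, and Il33 (0.93), Il1rl1 (3.23), Il7r (3.45) and Il17rb (3.46) rose on the log2 scale (edgeR, adjusted p = 0.00562, 0.0358, 0.0150, 0.00304 and 0.0454), while Crlf2 differed by -0.01 (edgeR, adjusted p = 0.983). In such sums more cells of a type and more RNA per cell cannot be told apart: lymphocyte-like cells were 2.94 to 3.05% of kept cells in WT libraries and 14.7 to 19.8% in Ikkb_cKO libraries. None of the 5 calls held without WT library 1 (Tslp -2.09, Il33 0.86, Il1rl1 3.14, Il7r 3.67, Il17rb 3.79) or WT library 2 (-2.18, 0.96, 3.29, 3.22 and 3.21), with adjusted p of 0.0752 to 0.330 by edgeR. In those fits 0 of 13993 and 0 of 13953 genes passed at all by edgeR (2544 and 2536 at an unadjusted p under 0.05), so they say nothing about these genes in particular. Those of Il33 (0.89) and Il17rb (2.72) were also lost without Ikkb_cKO library 1, and that of Il17rb (3.79) without Ikkb_cKO library 2.

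The cells that held the receptor UMIs were therefore not the same in the 2 genotypes. For Il1rl1, fibroblast-like cells held 48.8% ± 0.487 of UMIs in the 2 WT libraries and 5.57% ± 3.20 in the 3 Ikkb_cKO libraries (mean ± SD), and lymphocyte-like cells 9.16% ± 0.883 and 76.0% ± 3.697. For Crlf2, fibroblast-like cells held 41.5% ± 4.42 and 7.23% ± 2.29, and lymphocyte-like cells 3.67% ± 0.789 and 40.9% ± 2.10. Il7r was mostly lymphocytic in both, at 63.8% ± 5.35 and 89.1% ± 11.9. For Il33, fibroblast-like cells held 91.9% ± 4.56 and 97.2% ± 4.92. Of the 53 Tslp UMIs of Ikkb_cKO library 3, 32.1% came from keratinocyte-like cells, 41.5% from myeloid-like cells and 18.9% from fibroblast-like cells. Shares mix cell numbers and RNA per cell, and no test was made of them.

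The TSLP receptor needs both of its chains, and cells with UMIs of both were most numerous among lymphocyte-like cells. With all 5 libraries pooled, of cells with a Crlf2 UMI, 62.5% of 232 lymphocyte-like cells also had an Il7r UMI, against 9.71% of 659 myeloid-like cells and 0.181% of 553 fibroblast-like cells. Among clusters the share was 81.5% of 27 regulatory T-cell-like cells, 70.3% of 128 ILC2-like cells, 17.2% of 151 dendritic-cell-like cells and 0.467% of 214 macrophage-like cells. The pooled myeloid values rest in large part on Ikkb_cKO library 3: 30 of the 64 myeloid-like and 15 of the 26 dendritic-cell-like cells with both came from it, at shares of 29.4% and 39.5%. WT libraries 1 and 2 had shares of 7.45% and 3.28% of myeloid-like and 18.4% and 1.85% of dendritic-cell-like cells. In lymphocyte-like cells the share was 65.2% and 27.8% in WT and 62.2%, 78.6% and 61.5% in Ikkb_cKO. The unthinned shares of all lymphocyte-like cells with an Il7r UMI, given in the next paragraph, were of similar size. No link between the genes within lymphocyte-like cells is therefore read from co-detection. The macrophage-like cells, which had the highest Tslp level, thus had Crlf2 with almost no Il7r. For the IL-33 receptor gene, 70.8% of 415 ILC2-like cells with an Il1rl1 UMI had an Il7r UMI, as had 74.6% of 63 regulatory T-cell-like cells and 5.38% of 93 mast-like cells. UMIs of Il1rl1 and Il17rb met in 15 cells, all ILC2-like. A cell counts as having a gene from 1 UMI on, so shallow cells can be missed, while free RNA or a doublet can add a UMI, and these are shares of cells with UMIs and not of cells that express both genes.

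Depth per cell differed between libraries, so shares of cells with a UMI were compared after every cell was thinned to 1000 UMIs, leaving out 168 WT and 390 Ikkb_cKO fibroblast-like cells with fewer. Median depth before thinning was 4804 and 5261 UMIs in WT and 1551 to 2481 UMIs in Ikkb_cKO fibroblast-like cells. Tslp was then found in 1.39% ± 0.211 of fibroblast-like cells in the 2 WT libraries and 0.443% ± 0.157 in the 3 Ikkb_cKO libraries (mean ± SD) (7.69% and 1.303% unthinned), and Il33 in 1.75% ± 0.451 and 4.57% ± 1.91 (6.16% and 6.67% unthinned). Neither was found in any lymphocyte-like cell, whose median depth was 1685.5 to 2500 UMIs. In lymphocyte-like cells Il1rl1 was found in 14.4% ± 7.24 and 51.0% ± 15.6 (21.6% and 65.7% unthinned) and Il7r in 33.0% ± 9.26 and 43.4% ± 2.32 (46.5% and 62.9% unthinned), against 0.0275% and 0.0452% of fibroblast-like cells for Il7r. Il1rl1 in fibroblast-like cells was at 1.303% and 2.13% thinned but 4.39% and 3.04% unthinned, so no order is read from it. In an exact two-sided permutation test 2 libraries against 3 cannot go below p = 0.1, and none of the 18 gene and class pairs was below 0.514 after Benjamini-Hochberg adjustment.

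Other genes of the same pathways are described next from lists that hold 82 genes, by their counts. Unless a cluster is named, values are of whole classes, whose make-up by cluster differed between genotypes. In fibroblast-like cells 20 of 48 tested list genes rose and 2 fell, 45.8% beside 35.2% of all genes, and their median log2 difference was 0.58 beside 0.04 for all genes. In myeloid-like cells 11 of 55 rose and 4 fell, 27.3% beside 18.9%, with a median of 0.31 beside -0.02. In lymphocyte-like cells 9 of 36 rose and 2 fell, 30.6% beside 8.14%, with a median of 0.54 beside 0.02. Without WT library 1, 3 of the 22 calls in fibroblast-like cells, 8 of the 15 in myeloid-like cells and 2 of the 11 in lymphocyte-like cells still passed, as many as without WT library 2. Calls over all genes dropped in the same fits, to 179 higher and 242 lower in myeloid-like cells without WT library 1 (beside 780 and 913) and to 29 and 19 in lymphocyte-like cells (beside 224 and 129), so these losses are not particular to the lists. None reversed without any 1 library. Counts per list are small, and a count near the share of all genes in its class is not read as a result on that list.

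On the IL-33 receptor side, 5 of 9 tested signalling genes rose in fibroblast-like cells and none fell: Tab2 (1.26), Irak3 (1.22), Tollip (1.21), Map3k7 (1.09) and Irak1 (0.68), in log2 units as all values of this kind that follow. IRAK3 and TOLLIP are known as brakes on this route, and MAP3K7 with TAB2 passes the signal on to NF-κB. None of 11 passed in myeloid-like cells by edgeR or DESeq2 (4 at an unadjusted p under 0.05), and 1 of 5, Tab2 (1.27), rose in lymphocyte-like cells by edgeR and 0 by DESeq2. Of the IL-33 processing and release list, 1 of 7 rose in fibroblast-like cells, the oxidase gene Duox1 (3.93), where 35.2% of all genes passed. In myeloid-like cells 1 of 6 fell, the pore-forming Gsdmd (-0.89), where 18.9% of all genes passed, and 0 of 6 passed by DESeq2. In lymphocyte-like cells 0 of 3 passed by edgeR or DESeq2 (1 at an unadjusted p under 0.05). Duox1 was at 4.38 and 4.48 normalized CPM in WT and 90.7, 98.99 and 22.6 in Ikkb_cKO.

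On the TSLP and IL-7 receptor side, Jak2, the kinase that CRLF2 uses, rose in all 3 classes, by 1.24 in fibroblast-like, 2.36 in myeloid-like and 1.64 in lymphocyte-like cells. Cish, a target gene of STAT5 that dampens it, also rose in all 3, by 1.99, 3.16 and 1.15. In myeloid-like cells Cish went from 15.3 and 15.4 normalized CPM to 120, 85.7 and 188. In all, 5 of 11 genes rose and 1 fell in fibroblast-like cells, with Stat3 (0.82), Stat5b (0.83) and Jak1 (0.50) up and Socs1 (-0.74) down. In myeloid-like cells 6 of 13 rose and 1 fell, with Stat5a (1.95), Socs2 (2.42), Socs1 (1.70) and Tyk2 (0.86) up and Socs3 (-0.99) down. In lymphocyte-like cells 4 of 12 rose and 1 fell, with Stat5a (2.11) and Stat3 (1.46) up and Il2rg, the common gamma chain with which IL7R forms the IL-7 receptor, down (-0.71). These are values of whole classes. Macrophage-like cells were 52.8% of myeloid-like cells in WT and 12.9% in Ikkb_cKO libraries, and ILC2-like cells 28.1% and 65.4% of lymphocyte-like cells (means). Fibroblast-like cells also came mostly from different clusters. The part of this in the differences was not tested.

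Ccl17 and Ccl22, chemokines that dendritic cells are known to make on TSLP, rose in myeloid-like cells by 4.29 and 2.22, and the costimulator Cd80 by 1.27, 3 of 5 tested genes of that list. Ccl17 and Ccl22 are among the genes that lead the dendritic-cell-like cluster within its class. That cluster was 12.2% ± 1.94 of myeloid-like cells in the 2 WT libraries and 24.6% ± 3.19 in the 3 Ikkb_cKO libraries (mean ± SD), and macrophage-like cells 52.8% ± 1.76 and 12.9% ± 7.55. Within the dendritic-cell-like cluster alone Ccl17 rose by 3.26 ± 0.48 (SE; edgeR, adjusted p = 0.00402) and passed without any 1 library. Ccl22 was at 1.43 there (edgeR, adjusted p = 0.0658, under the threshold in 2 of the 5 fits that left out a library) and Cd80 at 0.89 (edgeR, adjusted p = 0.278). In the whole class Ccl17 was at 8.05 and 5.23 normalized CPM in WT and 125, 70.5 and 174 in Ikkb_cKO. Of known regulators of Tslp, 6 of 10 rose in fibroblast-like cells and none fell, while Tslp itself fell there. These were the vitamin D receptor Vdr (5.39), Il1r1 (1.48), Il4ra (1.28), Tlr3 (1.08), Il13ra1 (0.99) and the NF-κB subunit Rela (0.57). Vdr was at 0.398 and 0.258 normalized CPM in WT and 9.86, 16.5 and 16.003 in Ikkb_cKO. It rose in myeloid-like cells too (3.98), together with Nfkb1 (1.27), 2 of 9, where 18.9% of all genes passed. In lymphocyte-like cells Gata3 (2.10) and Nfkb1 (1.96) rose and Tnfrsf1a (-1.85) fell, of 6 tested.

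Among effector genes of receptor-bearing cells, Il4 (5.21) and Calca (3.58) rose in lymphocyte-like cells, 2 of 6 tested by edgeR, where DESeq2 called 5 of 6. ILC2-like cells were 28.1% ± 0.215 of this class in the 2 WT libraries and 65.4% ± 19.8 in the 3 Ikkb_cKO libraries (mean ± SD). Within ILC2-like cells Calca rose by 2.21 (edgeR, adjusted p = 0.00044) and passed without any 1 library, and Il4 did not pass (edgeR, adjusted p = 0.0527) other than in 2 of the 5 fits that left out a library. Il4 was at 0 and 4.11 normalized CPM in WT and 69.1, 98.3 and 102 in Ikkb_cKO, so its fitted value rests on a WT level near 0. In myeloid-like cells Il10 fell by 2.64, 1 of 2 tested, and in fibroblast-like cells Il13, a lymphocyte product, rose by 4.57, 1 of 3, from 0.199 and 0.0861 to 6.90, 6.08 and 1.17 normalized CPM. The 19 lymphocyte markers summed to 690 and 730 CPM in WT and 433, 471 and 1023 CPM in Ikkb_cKO fibroblast-like cells, with Trbc1 at 0, and their part in the Il13 value was not tested. Of the IL-25 and IL-17 receptor list, Il17ra (1.14) and Traf3 (1.48) rose in fibroblast-like cells, 2 of 6, near the 35.2% of all genes that passed there. None of 3 passed in myeloid-like or lymphocyte-like cells by edgeR or DESeq2 (2 and 1 at an unadjusted p under 0.05). Of the other alarmins, Hmgb1 fell in fibroblast-like cells (-0.73), 1 of 2, and Il1a in myeloid-like cells (-1.46), 1 of 6 by edgeR and 2 of 6 by DESeq2, while the 1 tested in lymphocyte-like cells did not pass by edgeR or DESeq2 (unadjusted p under 0.05 by edgeR).

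Over 15 profiles, fibroblast-like, myeloid-like and lymphocyte-like cells of each library, the genes most like each of the 6 by Pearson correlation of log2(CPM + 10) were picked as a description. The profiles share libraries and depth. Il33 was most like Irx2 (r = 0.998), Vstm4 (0.992) and En1 (0.990), where IRX2 and EN1 are homeodomain factors. Tslp was most like Oas2 (0.965) and Ftl1 (0.944), and Il1rl1 most like Calca, Pcsk1 and Ero1l (0.980 each). Il7r was most like Ccdc88c (0.979), D16Ertd472e (0.979) and Vps37b (0.974), Crlf2 most like Fau (0.988), Cox5a (0.974) and Bax (0.969), and Il17rb most like Carmil2 (0.958), Jakmip1 (0.948) and Nlrc3 (0.946).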

How the data were processed

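The 6 genes, the gene lists and the tests were chosen with earlier results of these data known. Per the submitters' processing notes, reads were processed with Cell Ranger 1.3.0 on mm10, while the matrix headers name software version 3.0.1. The deposited files hold UMI counts per gene and cell barcode, which the authors did not normalize, for 2 WT and 3 Ikkb_cKO libraries of 945 to 3393 barcodes and 2163166 to 16773096 UMIs. Whether the counting used strand is not given in the sources used here.

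Barcodes with under 300 genes or over 10% mitochondrial UMIs were removed. Scrublet's own threshold called 39 of 11084 barcodes (0.352%) and so had not worked. In its place, after seeing the data, the expected number of highest-scoring barcodes per library was removed (240, or 2.17%). Cells were scaled to 10000 counts and clustered with scanpy 1.11.5 (2000 variable genes, 30 components, 15 neighbours, Leiden resolution 1.0) into 31 clusters. A cluster took a class name, written "-like", when at least 3 markers of it were among its 50 leading genes, and at least 2 more than any other class had. Folds for leading genes were taken over the median of the other clusters, and "mural" was barred for clusters led by muscle precursor genes, both choices made after seeing the data. In this way 29 clusters were named, and 224 cells stayed unnamed.

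UMIs were summed per library and class, or per cluster with at least 20 cells in every library. They were tested over all genes with edgeR 4.0.16 (filterByExpr, TMM, robust quasi-likelihood fit, Benjamini-Hochberg adjustment, threshold 0.05). Tests of clusters with at least 5 cells were added after seeing the data, as were the fits without the macrophage-like or ILC2-like cluster, with Ikkb_cKO libraries 1 and 2 summed, and with no scaling beyond totals, and the values of list genes within 1 cluster. Fits were tested on simulated counts with 200 changed genes. Normalized CPM are edgeR's. Poisson intervals are at 95%, and a count of 0 allows 3 counts of the total. Genes were named as the 6 members and the list genes past the threshold. Genes most like a member had at least 20 CPM in some profile. A gene among those is not reported here. Gene positions are from GENCODE M21, and promoter windows from RefSeq, used for 5 of the 6 genes and not for Tslp. DESeq2 1.42.0, other size factors, cell filters, Leiden resolutions 0.5 and 2.0, thinning and leaving out each library were alternatives.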

Additional observations from a re-analysis of the deposited data

Results flagged for a closer look

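The effect of genotype on Crlf2 differed between cell classes in a test of the difference itself. The log2 difference (Ikkb_cKO minus WT) of myeloid-like cells lay 1.12 ± 0.29 (SE) above that of fibroblast-like cells (edgeR, adjusted p = 0.0186, where 11.6% of genes passed). That of lymphocyte-like cells lay 1.99 ± 0.40 (SE) above the fibroblast-like one (edgeR, adjusted p = 0.00611, where 1.84% passed). Each call was lost in some fits that left out 1 library, as given above. The myeloid-like one did not pass without Ikkb_cKO library 1 (0.99, edgeR adjusted p = 0.0509). Without WT library 1 or WT library 2 it was 1.26 or 0.98, and the lymphocyte-like one 2.38 or 1.72. In fibroblast-like cells Crlf2 was lower in all 3 Ikkb_cKO libraries than in both WT libraries, where groups did not overlap in 60.9% of all genes. Its call there was lost after each cell was thinned to 1000 UMIs (-1.07, edgeR adjusted p = 0.0518). Its groups overlapped in myeloid-like and lymphocyte-like cells. Fibroblast-like cells of the 2 genotypes came mostly from different clusters, and the part of this in the difference was not tested.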

How the results depend on the processing

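Replicate numbers 1 and 2 occur in both genotypes. Deviations of same-numbered libraries from the mean of their genotype had correlations of -0.15 to 0.03. The deviations of the 2 WT libraries are mirror images of each other, so this cannot tell whether same-numbered libraries were handled together. Replicate number 3 occurs only in Ikkb_cKO, so a fit with a replicate block takes the genotype difference from libraries 1 and 2 alone. Ikkb_cKO library 3 then adds nothing to that difference, so values that move cannot be put down to the block itself. With the replicate block 1 of the 6 genes passed in myeloid-like cells and 2 in lymphocyte-like cells, Il7r being gained (0.80, edgeR adjusted p = 8.97e-05). In the monocyte-like cluster 0 passed, with Crlf2 at -0.72 and Il7r at -0.32 (1.23 without the block). Under it Il1rl1 in myeloid-like cells was at 0.61, Il7r in the dendritic-cell-like cluster at -0.0087 (1.88 without the block) and Crlf2 over all cells at 0.23.

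Leaving out 1 library at a time gave 0 to 4 genes past the threshold in fibroblast-like cells, 1 to 4 in myeloid-like cells, 0 to 2 in lymphocyte-like cells, 0 to 4 over all cells, and 0 to 1, 0 to 1 and 0 to 2 in the Cilp, dendritic-cell-like and monocyte-like clusters. Log2 differences then ran from -1.94 to -1.46 for Tslp, 1.501 to 2.28 for Il33 and -1.92 to -1.55 for Crlf2 in fibroblast-like cells, 0.63 to 0.80 for Il1rl1 in myeloid-like cells and 2.74 to 3.35 in lymphocyte-like cells. Over all cells they ran from -2.23 to -1.98 for Tslp, 0.81 to 1.11 for Il33, 2.70 to 3.55 for Il1rl1, 3.22 to 3.67 for Il7r and 2.72 to 3.79 for Il17rb. For Crlf2 they ran from -1.46 to -0.71 in the monocyte-like cluster. The differences from fibroblast-like cells ran from 0.98 to 1.26 (myeloid) and 1.72 to 2.38 (lymphocyte) for Crlf2, from -0.56 to 0.11 and 1.77 to 2.98 for Il1rl1, and from -1.69 to -0.15 (myeloid) for Tslp. Over all genes, leaving out 1 library gave 157 to 2654 higher and 299 to 2866 lower genes in fibroblast-like cells, beside 1820 and 1896.

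Il1rl1 in myeloid-like cells did not pass with DESeq2 (0.70), no filter on low counts (0.66), Ikkb_cKO libraries 1 and 2 summed (0.75), the macrophage-like cluster left out (0.40), stricter cell filters (0.54) or cells thinned (0.98). There 0 genes passed without the macrophage-like cluster and 1 with stricter filters. Il7r passed there with DESeq2, no filter, libraries summed or cells thinned. In lymphocyte-like cells 2 passed, Il1rl1 and Il7r, with no filter, looser or stricter cell filters, or clustering without the 6 genes and the lists. Thinned, Crlf2 in fibroblast-like cells was lost at -1.07 and Il1rl1 gained at 1.19, and with stricter filters Il33 over all cells was at 0.97.

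The sign changed in these cases. Ikbkb in fibroblast-like cells was at -0.12 without WT library 1, -0.04 without Ikkb_cKO library 2, -0.044 with no filter and -0.054 with stricter filters, and up to 0.22 without 1 library. Crlf2 over all cells was at 0.02 without WT library 1, 0.26 without Ikkb_cKO library 3, -0.28 without library 1, 0.0066 with other size factors, 0.050 with no scaling, 0.0060 with DESeq2, 0.0014 with looser filters and 0.082 with stricter ones. Crlf2 was at -0.014 in lymphocyte-like cells without the ILC2-like cluster, at -0.44 to 0.33 in the cycling myeloid cluster, -0.27 to 0.48 in mast-like cells and -0.14 to 0.42 in ILC2-like cells without 1 library, and at -0.014 in the last when clustered without the 6 genes. Without 1 library Tslp in macrophage-like cells was at -0.59 to 0.013 and Il7r in monocyte-like cells, at 1.23 with all libraries, at -0.27 to 1.54. Shares of cells differed by -1.35 percentage points for Il1rl1 in fibroblast-like cells unthinned, and for Crlf2 in lymphocyte-like cells by -0.93, -0.88 and -0.17 points (500 UMIs, 2000 UMIs, and without Ikkb_cKO library 2). Without 1 library those shares ran from 0.53 to 1.23 and from -0.17 to 5.12 points. Beyond the fewer cells or samples of each alternative, the cause was not tested. Keratinocyte-like and endothelial-like cells were too few in some libraries for a test.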
